A study of Rattus norvegicus with 20 samples.

Results

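Slc12a2 (ENSRNOG00000015971), which encodes the cotransporter NKCC1, and Stk39 (ENSRNOG00000024808), which encodes the kinase SPAK, were followed in the choroid plexus RNA of 20 female Zucker rats. They were chosen by name and make up 2 of the 32883 genes measured in each library. The tissue was the choroid plexus of the lateral and 4th ventricles of each rat at 16 weeks of age, with 1 library per rat. The untreated cohort held 6 lean rats (+/fa) and 6 obese rats (fa/fa, lacking a working leptin receptor in all cells). The injected cohort held 4 lean rats given the sesame oil vehicle under the skin, termed lean control, and 4 obese rats given testosterone propionate in the same oil, termed obese + TT. Genotype and testosterone therefore changed together in the injected cohort, and it held neither obese rats given vehicle nor lean rats given testosterone. The estrous cycle of the rats was not controlled.

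The choroid plexus epithelium secretes cerebrospinal fluid from the blood side to the ventricle. NKCC1 carries sodium, potassium and chloride together across the membrane, and in this epithelium, unlike most others, it lies in the membrane facing the ventricle. SPAK phosphorylates NKCC1 and thereby activates it, after WNK kinases have activated SPAK in response to chloride or osmotic signals. Protein phosphatase 1 removes the activating phosphates. RNA abundance gives no reading of phosphorylation or of protein level.

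The region upstream of each start site is shown because the comparison asks whether both genes move together between rats. The sequences are the 250 bases before the RefSeq gene start in rat build GRCr8, whereas the reads were mapped by the authors to Rnor_6.0, so that these positions do not apply to the deposited values. The Slc12a2 region is chr18:53546083-53546332 on the plus strand and that of Stk39 is chr3:73586980-73587229 on the minus strand. Both are written on the gene's own strand, with capitals marking each match on either strand to the GC box GGGCGG, the letters bound by Sp1-type factors.
Slc12a2: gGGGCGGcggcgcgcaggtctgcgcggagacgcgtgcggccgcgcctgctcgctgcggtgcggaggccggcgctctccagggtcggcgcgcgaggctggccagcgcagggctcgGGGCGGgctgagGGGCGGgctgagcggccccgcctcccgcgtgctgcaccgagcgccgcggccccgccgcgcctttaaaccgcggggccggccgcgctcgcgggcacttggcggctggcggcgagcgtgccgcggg
Stk39: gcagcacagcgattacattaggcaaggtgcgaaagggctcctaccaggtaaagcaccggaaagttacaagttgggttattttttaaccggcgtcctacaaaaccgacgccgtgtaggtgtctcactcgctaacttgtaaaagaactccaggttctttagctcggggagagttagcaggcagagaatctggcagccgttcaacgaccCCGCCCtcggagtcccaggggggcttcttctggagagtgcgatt
The Slc12a2 region held 3 GC boxes and a G and C content of 83.2%, with 48 CG dinucleotides, and only 0.39% of 33469 rat promoter windows of this length were as rich in G and C. The Stk39 region held 1 GC box, on the opposite strand, with 53.2% G and C and 15 CG dinucleotides, against medians of 51.2% and 5 over all windows, and 25.8% of windows held as many. The GC box occurred in 30.5% of all windows. Neither region held the androgen receptor half-site AGAACA (17.5% of all windows), the TATA box TATAAA (12.9%), the CCAAT box CCAAT (34.0%) or the cAMP response element TGACGTCA (1.59%), each searched on both strands. Such matches describe letters and are not binding sites, and no match says only that those letters are not in this window.

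Both genes were abundant. In transcripts per 1000000 (TPM), a scale that divides out gene length and the library total, Slc12a2 ranked 387th of 17922 genes above 0 in the lean group by its mean and Stk39 ranked 394th. In the obese + TT group the ranks were 278th and 294th of 17784. Each gene was thus within the top 2.31% of detected genes in every group. The transcripts of Ttr (transthyretin, the main secretory product of this epithelium) took 31.2 to 39.3% of the TPM of an untreated library and 25.8 to 30.5% of an injected one, and since each library sums to a fixed total, a higher share for Ttr leaves less for all other genes together. How many reads stand behind each value is unknown, because no counts were used here.

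The cohorts stood apart in their cell type markers before either gene was considered. All 10 markers of choroid plexus epithelium were detected in every library, with Ttr the most abundant. The other 9 markers summed to 8438 TPM (median) in lean, 8317 TPM in obese, 12063 TPM among lean control and 13389 TPM among obese + TT rats. The stromal pair Col1a1 (a collagen chain) and Dcn (decorin, the more abundant of them) went the other way, with median sums of 99.6, 95.5, 11.8 and 9.60 TPM in the same order. Rgs5, of mural cells, was at 99.7 ± 11.1 and 99.8 ± 19.1 TPM in the untreated groups (SD, n = 6 of each) and at 5.51 ± 3.85 and 4.11 ± 1.17 TPM in the injected groups (SD, n = 4 of each). Cd74, of antigen-presenting immune cells, was at 158 ± 13.6 and 182 ± 19.7 TPM against 68.5 ± 12.6 and 45.1 ± 19.6 TPM. Gja1, the astrocyte marker found, was at 4.79 to 9.12 TPM in the untreated and 1.21 to 3.39 TPM in the injected rats. None of these markers was listed at 0 in a library. Of the 5 stromal, 3 mural, 5 immune and 3 astrocyte markers listed, 2, 1, 1 and 1 had a symbol at hand, and none of the endothelial, neuronal or oligodendrocyte markers did. The erythroid markers (2 of 3 found, Hba-a1 the more abundant) summed to medians of 3151, 4332, 2494 and 5106 TPM and overlapped between the cohorts. In such bulk samples, fewer cells of a type and less RNA per cell cannot be told apart.

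**Figure D1:**
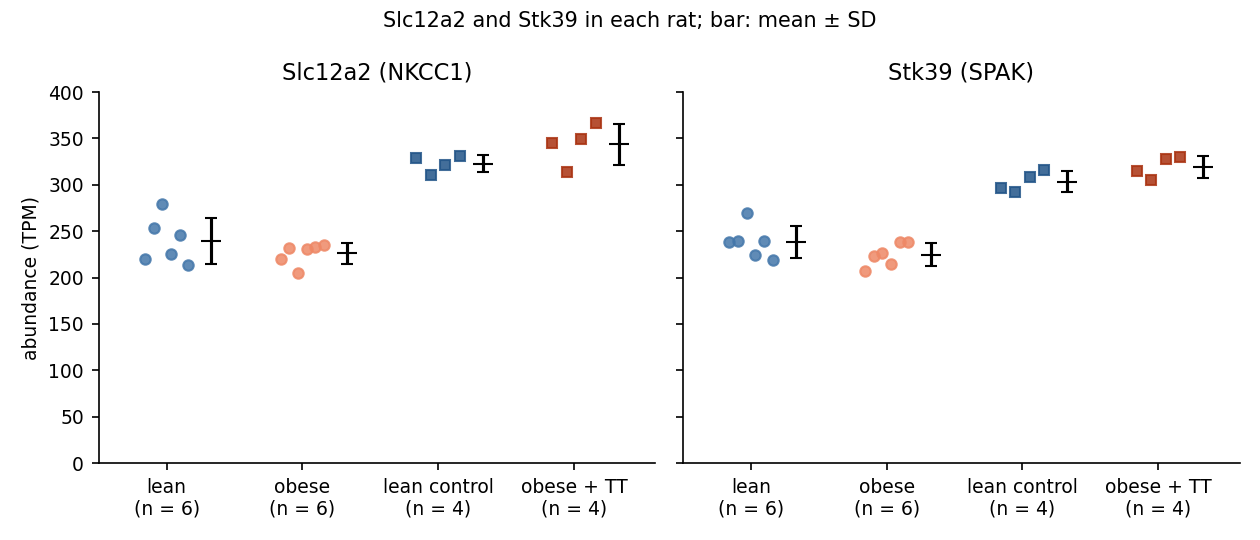
Abundance of Slc12a2 and Stk39 in TPM (vertical axis, from 0) in each rat of the 4 groups (points), with the mean ± SD of each group (bar). Both genes lie between 204.62 and 278.91 TPM in the untreated rats and between 291.77 and 366.38 TPM in the injected rats.

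The first comparison asked whether obesity alone was accompanied by a different NKCC1 or SPAK transcript level. In the 6 lean rats Slc12a2 ranged from 213.62 TPM to 278.91 TPM with a median of 235.7 TPM. In the 6 obese rats it ranged from 204.62 to 235.18 TPM with a median of 231.4 TPM. The obese range was narrower and overlapped the lean range. The group means, 226.0 ± 11.8 TPM for obese and 239.5 ± 24.6 TPM for lean (± SD, 6 rats each), differed by a log2 fold change of -0.08 (SE 0.07), or -5.35% with a 95% interval of -14.4 to 4.64% (limma, adjusted p = 0.762; exact two-sided permutation test, p = 0.268). Stk39 ranged from 218.56 to 269.26 TPM in lean rats, median 239.1 TPM, and from 206.97 to 238.37 TPM in obese rats, median 225.2 TPM. Lean rat 3 was the highest for both genes. The log2 fold change of Stk39 was -0.08 (SE 0.06), or -5.63% with a 95% interval of -13.5 to 2.99% (limma, adjusted p = 0.701; exact two-sided permutation test, p = 0.156). Neither difference passed the threshold, and the intervals reach down to -14.4% for Slc12a2 and -13.5% for Stk39. Without lean rat 3 the log2 fold changes were -0.03 and -0.05. The background was 0% of 15176 genes called at an adjusted p under 0.05 in limma (1466 at an unadjusted p under 0.05), and the groups did not overlap in 0.54% of genes. When libraries were scaled to a common median gene instead, a difference of -0.09 was obtained for Stk39 (exact two-sided permutation test, p = 0.0152; limma, adjusted p = 0.376), and the groups still overlapped.

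The second comparison set obese + TT against lean control rats. Slc12a2 was at 328.73, 310.21, 321.78 and 330.98 TPM in lean control rats 13 to 16 and at 344.63, 313.3, 349.43 and 366.38 TPM in obese + TT rats 17 to 20. A single obese + TT rat, 18, fell within the lean control range, and the other 3 lay above it. The log2 fold change was 0.09 (SE 0.06), or 6.21% with a 95% interval of -3.06 to 16.4% (limma, adjusted p = 0.781; exact two-sided permutation test, p = 0.143). It was 0.055 without obese + TT rat 20 and 0.13 without obese + TT rat 18. Stk39 was at 296.47, 291.77, 308.58 and 316.37 TPM in lean control and at 314.85, 304.87, 328.3 and 329.72 TPM in obese + TT rats. Here 2 of the 4 obese + TT rats, 19 and 20, lay above every lean control rat. The log2 fold change of Stk39 was 0.07 (SE 0.05), or 5.32% with a 95% interval of -2.80 to 14.1% (limma, adjusted p = 0.785; exact two-sided permutation test, p = 0.143). With 4 against 4 rats this exact test cannot give a p below 0.0286. Of 15259 genes, 0% were called in limma (1134 at an unadjusted p under 0.05), and the groups did not overlap in 4.02% of genes. Relative to the 9 epithelial markers, a scale added after the marker sums were seen, the values were -0.03 for Slc12a2 and -0.04 for Stk39 (limma, adjusted p = 0.863 and 0.756), and relative to all 10, Ttr included, they were 0.16 and 0.15 (limma, adjusted p = 0.776 and 0.781). These scalings moved all genes, with the median gene at 0.01 on TPM, -0.10 relative to the 9 markers and 0.08 relative to all 10. Minus the median gene, Slc12a2 was at 0.08, 0.07 and 0.08 and Stk39 at 0.07, 0.06 and 0.07 on these scales. Such near-equal values follow from the scaling, which divides all genes of a library by the same factor, and are no separate support.

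Both genes thus had a lower mean in obese than lean rats without injection and a higher mean in obese + TT than lean control rats. The difference between these contrasts was tested in a fit of all 20 libraries. It was 0.17 (SE 0.10) for Slc12a2 and 0.16 (SE 0.08) for Stk39 on the log2 scale (limma, adjusted p = 0.673 and 0.623), with 0% of 15406 genes called (1288 at an unadjusted p under 0.05). Neither passed the threshold, and the differences were 0.03 and 0.02 relative to the 9 epithelial markers and 0.27 and 0.26 relative to all 10, Ttr included, without a call on either scale. The median gene moved with the scale, to -0.14 and 0.09, and minus it the differences were 0.17 and 0.16 relative to the 9 markers and 0.18 and 0.17 relative to all 10, beside 0.17 and 0.16 on TPM. Their likeness again follows from the scaling itself.

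The remaining comparisons cross the cohorts, so that cohort, injection and, in the obese rats, testosterone cannot be told apart. Slc12a2 was 35.3% higher in lean control than in lean rats, with a log2 fold change of 0.44 (SE 0.07; limma, adjusted p = 0.000304), and 51.9% higher in obese + TT than in obese rats, with 0.60 (SE 0.06; limma, adjusted p = 9.29e-06). Stk39 was 27.5% and 42.3% higher, with log2 fold changes of 0.35 (SE 0.06) and 0.51 (SE 0.06; limma, adjusted p = 0.000435 and 1.65e-05). Every injected rat was above every untreated rat of its genotype for both genes (exact permutation test, two-sided, p = 0.00952, which is the lower limit for 4 against 6 rats). Such differences were common in these libraries. Among all genes tested, 58.2% were called between lean control and lean and 58.1% between obese + TT and obese, and 41.7% were called higher in each. Groups did not overlap, with the injected rats higher, in 34% and 34.1% of genes. The median gene itself was 0.24 and 0.25 higher in log2, and relative to it Slc12a2 was 0.19 and 0.36 and Stk39 0.11 and 0.26 higher. Among all genes 38.2% had a fold change at least as high as that of Slc12a2 in the lean comparison and 29.0% in the obese one, and for Stk39 43.2% and 34.2% did.

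The step itself shifted with the scale on which a library was read, as did that of all genes. Each scale divides all genes of a library by the same factor. The step minus the median gene was therefore nearly fixed in advance, apart from the added 0.1 TPM and the choice of genes tested. With Ttr left out of the library total, the log2 fold changes were 0.33 and 0.45 for Slc12a2 and 0.24 and 0.35 for Stk39. With libraries scaled to a common median gene they were 0.22 and 0.38 for Slc12a2 and 0.14 and 0.29 for Stk39, all called in limma, where 31.9% and 30.7% of all genes were called higher. The share of calls that were higher was 71.6% and 71.8% on TPM, 62.6% and 58.6% without Ttr, 53.9% and 53.4% with median scaling, 28.3% and 18.1% relative to the 9 epithelial markers, and 84.4% and 87.1% relative to all 10. Minus the median gene, over TPM and these 4 other scales, Slc12a2 was 0.17 to 0.20 higher in the lean and 0.32 to 0.37 higher in the obese comparison, and Stk39 0.08 to 0.12 and 0.23 to 0.28 higher. On FPKM (fragments per kilobase scaled to the library), Stk39 was 0.09 higher in lean control than lean rats and was not called (limma, adjusted p = 0.121), and the groups overlapped for both genes in that comparison.

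**Figure D2:**
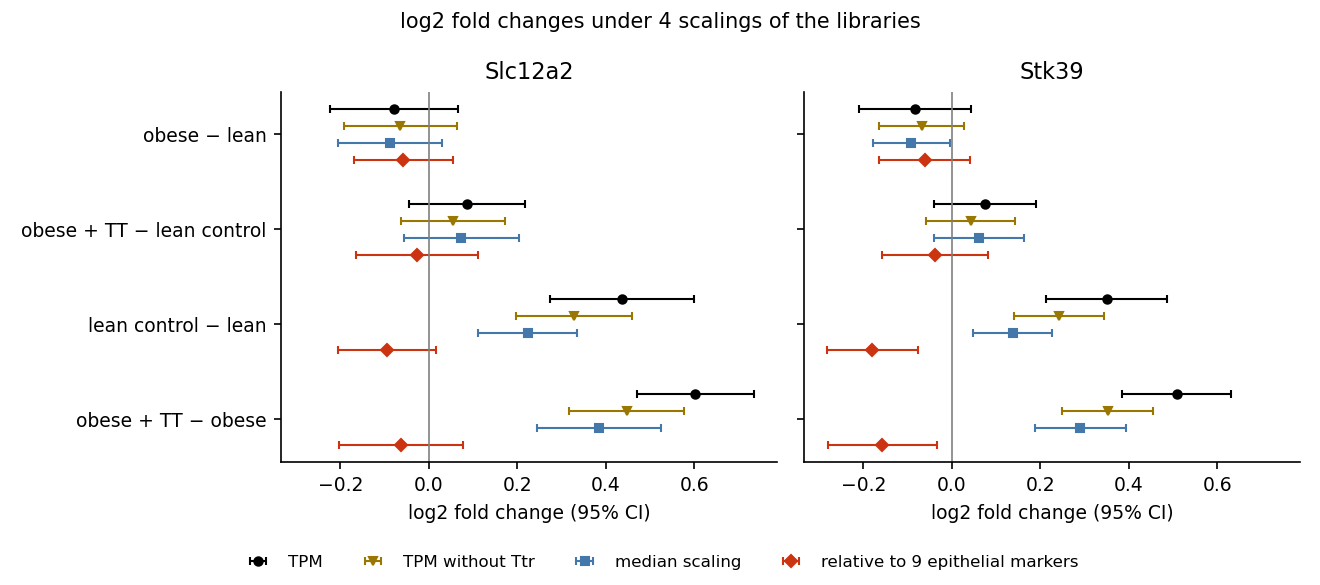
log2 fold change of Slc12a2 and Stk39 (horizontal axis, points) with 95% confidence intervals (bars) in the 4 comparisons, under 4 ways of scaling the libraries. In the cross-cohort comparisons the TPM values of 0.35 to 0.60 shrink without Ttr and with median scaling and lie below 0 relative to the 9 epithelial markers, where the median gene is at -0.26 and -0.38.

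Relative to the 9 epithelial markers other than Ttr, neither gene was higher in the injected rats, on a scale on which the median of all genes was lower by more (-0.26 in the lean and -0.38 in the obese comparison). Per 1000 TPM of the 9 markers, Slc12a2 stood at 28.1 ± 1.43 TPM (lean), 27.04 ± 1.74 TPM (obese), 26.3 ± 1.13 TPM (lean control) and 25.9 ± 1.56 TPM (obese + TT; ± SD, 6 or 4 rats a group). The groups overlapped, and the log2 fold changes across cohorts were -0.09 (SE 0.05) in lean and -0.06 (SE 0.06) in obese rats (limma, adjusted p = 0.131 and 0.417). Enpp2 (autotaxin, a secreted lysophospholipase D) was the most abundant of the 9 markers, at 3931 ± 344 TPM in the lean group, and weighs most in their sum. Stk39 was at 28.0 ± 1.12, 26.9 ± 1.51, 24.7 ± 1.10 and 24.1 ± 0.791 TPM per 1000 TPM of the markers in the same order. Its log2 fold changes of -0.18 (SE 0.05) and -0.16 (SE 0.06) passed the threshold as decreases (limma, adjusted p = 0.00564 and 0.0299), smaller than that of the median gene, and 44.1% and 50.7% of all genes were called lower on this scale. Ttr makes up nearly all of the sum of the 10 epithelial markers, which fell from a median of 342841 TPM in lean to 301218 TPM in lean control and from 350697 TPM in obese to 282536 TPM in obese + TT rats. Relative to all 10, also added after the data were seen, both genes were higher across the cohorts, with log2 fold changes of 0.64 and 0.91 for Slc12a2 and 0.56 and 0.82 for Stk39, all called in limma, as against 0.44 and 0.54 for the median gene. On that scale 7430 of 15328 genes were called higher in the lean comparison and 8732 of 15427 in the obese one. Among the epithelial markers themselves, on TPM, Ttr was at -0.23 (limma, adjusted p = 0.378) and -0.35 (limma, adjusted p = 0.0417) in log2 across the cohorts, and was called lower in the obese comparison. Its groups overlapped in neither, with 311516 to 390135 TPM in lean against 272069 to 305446 TPM in lean control rats. In obese rats it was at 322841 to 393331 TPM, against 257742 to 295101 TPM in obese + TT rats. The missing call in the lean comparison (limma, SE 0.21) is therefore not a sign of equal levels. Kl (a co-receptor for FGF23) was 1.12 and 1.16 and Kcnj13 (a potassium channel) 1.07 and 1.04 higher in log2 across the cohorts, and Aqp1 (the water channel of the ventricular membrane) was 0.13 and 0.24 higher without passing the threshold. The step of Slc12a2 and Stk39 on TPM therefore lay within the range of the epithelial markers. The part of the stromal, mural and immune differences, and of Ttr, in the step was not tested.

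**Figure D3:**
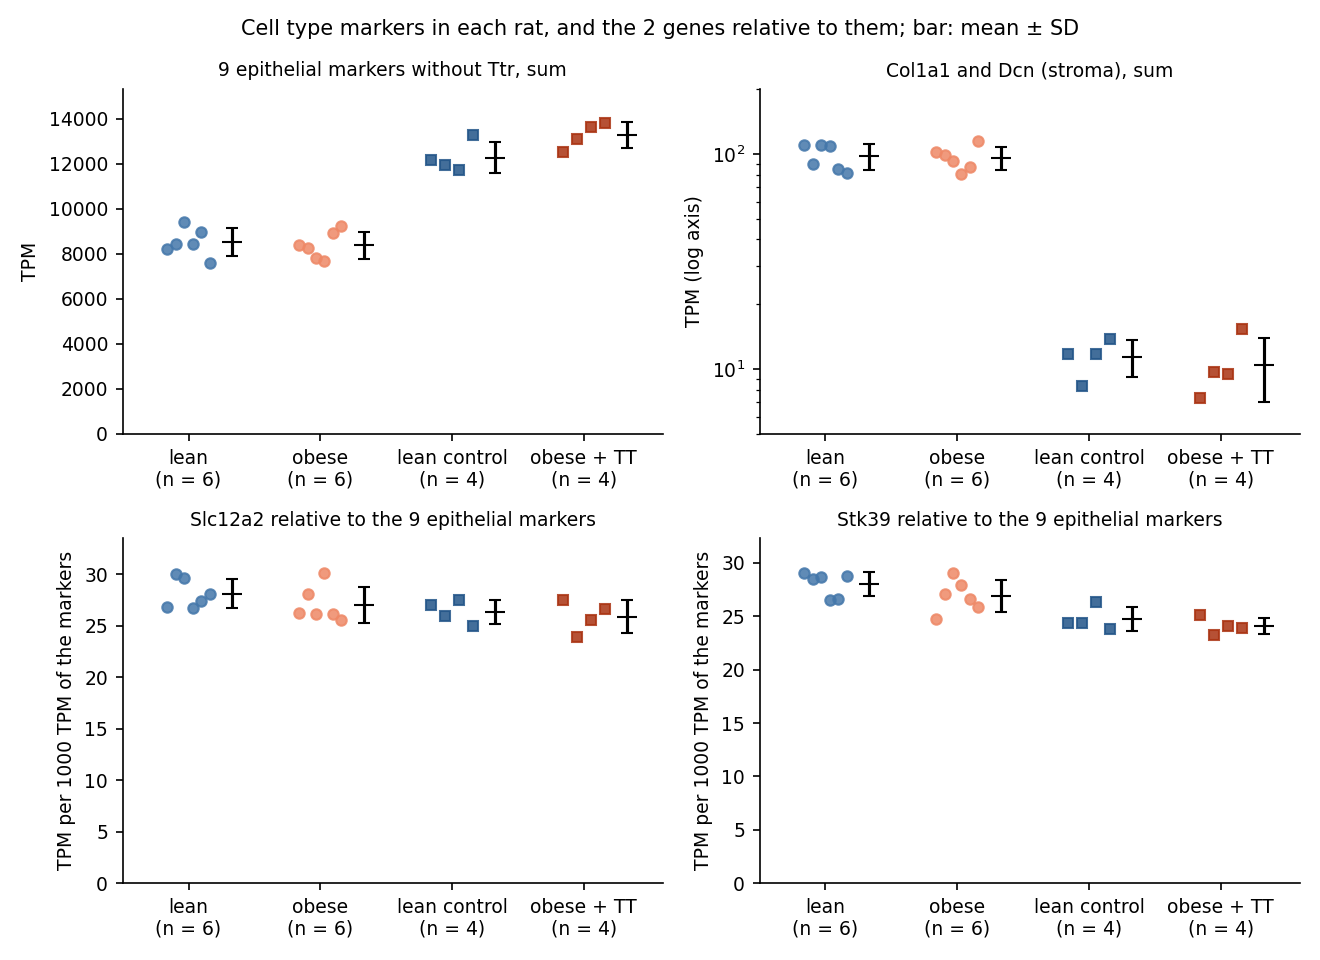
Summed TPM of the 9 epithelial markers without Ttr and of Col1a1 with Dcn (log axis) in each rat (upper panels), and Slc12a2 and Stk39 in TPM per 1000 TPM of those epithelial markers (lower panels), with group mean ± SD (bar). The stromal sum is 80.89 to 115.06 TPM in untreated and 7.35 to 15.32 TPM in injected rats, and the lower panels show no higher level in the injected rats.

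The ratio of both transcripts within a library does not depend on its scaling. Slc12a2 divided by Stk39 was 1.00 ± 0.0485 in lean and 1.01 ± 0.0655 in obese rats (SD, n = 6 of each). It was 1.07 ± 0.0304 for lean control and 1.07 ± 0.0367 for obese + TT (± SD, 4 rats each). The transcripts were therefore nearly equal in every group, and the lowest and highest single rats were at 0.902 (obese rat 9) and 1.11 (obese + TT rat 20). The log2 ratio did not differ detectably between obese and lean rats (0.00, exact two-sided permutation test, p = 0.920) or between obese + TT and lean control rats (0.01, exact two-sided permutation test, p = 0.686). It was 0.09 higher in lean control than in lean rats (exact two-sided permutation test, p = 0.0381), with overlapping groups, and this p rose to between 0.0635 and 0.0952 when any of 6 of the 10 rats was left out (lean rats 1, 4, 5 and 6, lean control rats 13 and 14). In obese + TT against obese rats it was 0.09 higher (exact two-sided permutation test, p = 0.0952).

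From rat to rat within a group, both genes varied little. The pooled SD within groups was 0.10 for Slc12a2, 0.08 for Stk39 and 0.07 for their ratio on the log2 scale (20 rats). Across the 12 untreated rats log2 TPM of Slc12a2 and Stk39 correlated, with Pearson's r = 0.742 (permutation test, p = 0.0118, adjusted 0.0221) and Spearman's rho = 0.713 (permutation test, p = 0.0117, adjusted 0.0221). Without the 2 rats farthest from the median of Slc12a2, r was 0.589. Without lean rat 3 alone, r was 0.490 (permutation test, p = 0.128), and rho was 0.627 (permutation test, p = 0.0452), so that Pearson's r, but not rho, lost its unadjusted call without that rat. Across the 8 injected rats r was 0.860 (exact permutation test, p = 0.00685, adjusted 0.0211) and rho was 0.905 (exact permutation test, p = 0.00456, adjusted 0.0211), with r = 0.706 without the 2 farthest rats. No r of uncentred values was taken over both cohorts, since they form separate clusters. These were among 12 tests in 1 family.

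**Figure D4:**
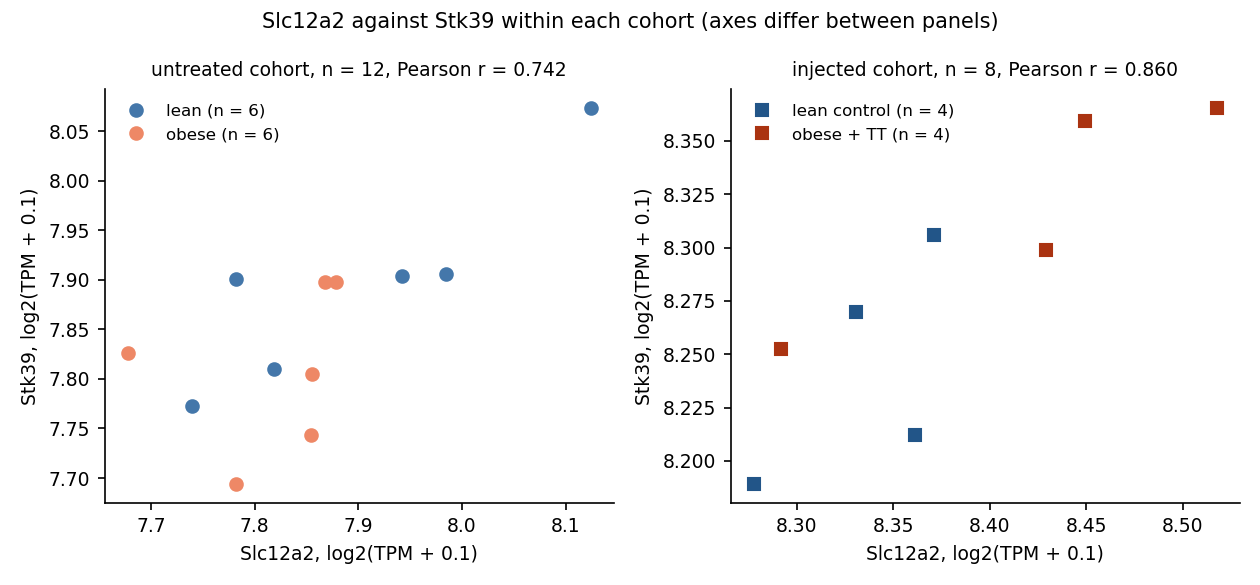
log2(TPM + 0.1) of Stk39 (vertical) against that of Slc12a2 (horizontal) in each rat, untreated cohort on the left and injected cohort on the right, with different axes. Points rise together in both panels (r = 0.742 and 0.860), and lean rat 3 is the point at the upper right of the untreated cohort.

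On TPM, where a large share for Ttr in itself lowers the values of other genes, Ttr ran against both genes. Pearson's r with Ttr was -0.457 for Slc12a2 (permutation test, p = 0.111, adjusted 0.111) and -0.665 for Stk39 (permutation test, p = 0.0129, adjusted 0.0221) in the untreated rats. Spearman's rho was -0.608 and -0.748 there (permutation tests, p = 0.0396 and 0.00702, adjusted 0.0432 and 0.0211). In the injected rats r was -0.780 and -0.888 (exact permutation tests, p = 0.0243 and 0.00451, adjusted 0.0291 and 0.0211), and rho was -0.833 and -0.810 (exact permutation tests, p = 0.0154 and 0.0218, adjusted 0.0231 and 0.0290). Without the 2 farthest rats these values of r were -0.521, -0.789, -0.888 and -0.934. Centred on group means, r for Slc12a2 was -0.436 in untreated and -0.688 in injected rats (permutation tests, adjusted p = 0.145 and 0.0878). For Stk39 it was -0.673 and -0.843 (permutation tests, adjusted p = 0.028 for both). The matching rho for Slc12a2 was -0.448 and -0.643 (permutation tests, adjusted p = 0.145 and 0.115). That for Stk39 was -0.615 and -0.833 (permutation tests, adjusted p = 0.0546 and 0.028). The relation with Ttr depended on the scale. With median scaling, r with Ttr was 0.152 for Slc12a2 and 0.0879 for Stk39 in untreated rats (permutation tests, adjusted p = 0.691 and 0.806) and -0.204 and -0.288 in injected rats (exact permutation tests, adjusted p = 0.691 for both), and relative to the 9 epithelial markers the 4 values were 0.204 to 0.377. Without the 2 farthest rats, the values with median scaling were 0.491 and 0.613 in untreated and -0.627 and -0.765 in injected rats. On FPKM they were -0.511 to -0.296, and relative to all 10 epithelial markers, a sum that is nearly all Ttr, they were -0.928 to -0.887.

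The correlation between Slc12a2 and Stk39 kept its sign over all rats of a cohort on every scale tried but not its call. Without the 2 rats farthest from the median of Slc12a2 it was -0.0145 on FPKM and 0.000698 with median scaling centred on group means in untreated rats, and -0.0774 without Ttr centred on group means in injected rats, so that on these scales the relation rested on those rats. With Ttr left out of the library total, r was 0.660 in untreated (permutation test, p = 0.0263, adjusted 0.0526) and 0.709 in injected rats (exact permutation test, p = 0.0777, adjusted 0.104). With median scaling r was 0.613 and 0.880 (permutation tests, exact for the injected rats, p = 0.0314 and 0.013, adjusted 0.0943 for both). Relative to the 9 epithelial markers it was 0.491 (permutation test, p = 0.0971, adjusted 0.388) and 0.807 (exact permutation test, p = 0.00253, adjusted 0.0304). Relative to all 10, Ttr included, r was 0.905 and 0.961 (permutation tests, adjusted p = 8e-05 and 0.000595). On that scale both genes are divided by the same sum, nearly all Ttr, which in itself adds to their correlation. These values of r cannot separate that shared divisor from a relation between the genes. On TPM centred on group means r was 0.699 and 0.787 (permutation tests, adjusted p = 0.028 for both). Without the 2 farthest rats these centred values were 0.328 and 0.669.

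Many other genes followed Slc12a2 and Stk39 at least as closely. After the group mean was taken out of each gene over the 20 rats, r between them was 0.714, which ranked Stk39 115th among the 6471 genes of at least 10 TPM compared with Slc12a2 (median r of all, 0.283), and Slc12a2 242nd among those compared with Stk39 (median 0.386). With median scaling r was 0.571, the ranks were 117th and 93rd, and the medians of all were 0.0285 and 0.0184. By the SD of the log2 ratio, Stk39 was the 23rd closest gene to Slc12a2 and Slc12a2 the 136th closest to Stk39. Among genes with a symbol, Adam9 (a membrane metalloprotease) was nearest to Slc12a2 with r = 0.866, and Sec63 (part of protein entry into the endoplasmic reticulum, 0.822), Cntn1 (a cell adhesion molecule, 0.809) and Tgoln2 (a trans-Golgi protein, 0.803) were also among the 5 nearest. Nearest to Stk39 were Rnf14 (a ubiquitin ligase, 0.880), Ywhab (a 14-3-3 protein, 0.866), Tob1 (an antiproliferative protein, 0.865), Grsf1 (an RNA-binding protein, 0.857) and Cfap69 (a cilia and flagella protein, 0.856). With median scaling, Adam9 (0.782) and Sec63 (0.773) stayed among the 5 nearest named genes to Slc12a2, and Ywhab (0.703) and Rnf14 (0.687) stayed among the 5 nearest to Stk39. All of these are descriptions over 20 libraries that share their scaling.

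Of 27 genes listed for the pathway, 11 had a symbol at hand, and all were above 10 TPM on average. Of the 2616 genes with a symbol, 2380 besides Slc12a2 averaged at least 10 TPM, so that this level does not characterise the pathway. The WNK kinases, the SPAK relative OSR1 and most cotransporters of the family were not analysed here. The scaffold Cab39l (MO25 beta), which holds SPAK in its active form, was more abundant than the kinase, with 436 ± 39.7 TPM (lean), 409 ± 35.7 TPM (obese), 520 ± 26.5 TPM (lean control) and 571 ± 18.7 TPM (obese + TT; ± SD, 6 or 4 rats a group). Its relative Cab39 (MO25 alpha) was at 59.8 ± 5.62, 58.1 ± 4.70, 75.5 ± 7.42 and 73.3 ± 4.75 TPM in the same order. Slc12a4 (KCC1), a potassium chloride cotransporter that SPAK inhibits, was at 101 ± 7.91, 97.4 ± 8.24, 159 ± 16.7 and 166 ± 6.85 TPM. Trpv4, an osmosensitive cation channel of this epithelium, was at 64.1 ± 8.47, 60.0 ± 11.4, 84.7 ± 9.90 and 76.9 ± 2.15 TPM.

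Between obese and lean rats, 4 of the 11 genes had a higher and 7 a lower mean in obese rats, none was called in limma, and their median log2 fold change was -0.05 against 0.02 for all genes. Leaving out Slc12a2 and Stk39, the median was -0.04. The smallest adjusted p was that of Sgk1, a kinase induced by corticosteroids that acts upstream of WNK signalling. Sgk1 ranged from 131.81 to 265.13 TPM in lean rats, median 162.4 TPM, and from 110 to 152.1 TPM in obese rats, median 125.5 TPM. Its log2 fold change was -0.48 (SE 0.14; limma, adjusted p = 0.295), and the groups overlapped. Between obese + TT and lean control rats, 8 of 11 had a higher and 3 a lower mean, none was called, and the median was 0.07 against 0.01 for all genes. Leaving out Slc12a2 and Stk39, it was 0.05. Sgk1 stood at 121 ± 10.5 TPM (lean control) and 117 ± 22.5 TPM (obese + TT; ± SD, 4 rats each).

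Across the cohorts 7 of the 11 genes were called higher in each comparison: Slc12a2, Slc12a4, Stk39, Cab39, Cab39l, Cul3 (a scaffold of the ubiquitin ligase that marks WNK kinases for degradation) and Trpv4. Without Slc12a2 and Stk39 this was 5 of 9, beside 41.7% of all genes called higher in each comparison. Slc12a4 had the largest step, 0.65 in lean and 0.77 in obese rats on the log2 scale (limma, adjusted p = 1.98e-05 and 4.34e-06). The medians over the 11 genes were 0.34 and 0.38, against 0.24 and 0.25 for all genes. Over the 9 genes other than Slc12a2 and Stk39 they were 0.26 and 0.34. Sgk1 was called lower in lean control than in lean rats, with -0.54 (SE 0.16; limma, adjusted p = 0.0116), where 16.5% of all genes were called lower, and was at -0.13 (SE 0.12; limma, adjusted p = 0.360) in the obese comparison. The 3 catalytic subunits of protein phosphatase 1, Ppp1ca, Ppp1cb and Ppp1cc, lay between -0.10 and 0.15 and none was called. With median scaling the calls were 4 higher and 2 lower in the lean and 5 higher and 3 lower in the obese comparison, beside 31.9% and 30.7% of all genes called higher and 27.3% and 26.8% called lower on that scale. Of the 9 genes other than Slc12a2 and Stk39, 2 were called higher and 2 lower in the lean comparison. In the obese comparison 3 of them were called higher and 3 lower. Slc12a2, Slc12a4, Stk39 and Cul3 were called higher in both on that scale, and Ppp1ca, with -0.31 and -0.26 (limma, adjusted p = 6.36e-05 and 0.00063), and Sgk1, with -0.75 and -0.35 (limma, adjusted p = 0.00298 and 0.0251), were called lower in both.

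**Figure D5:**
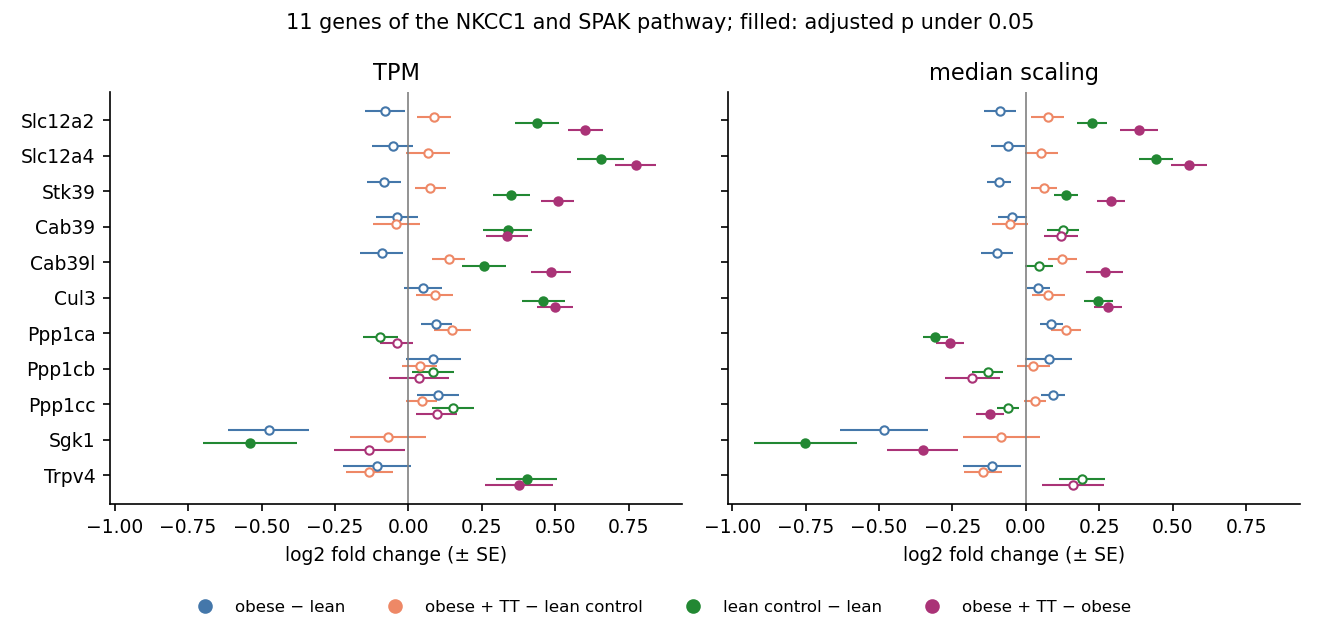
log2 fold changes (horizontal axis, points ± SE) of 11 pathway genes in the 4 comparisons, on TPM (left) and with median scaling (right), with filled points for an adjusted p under 0.05. No point of the obese to lean or obese + TT to lean control comparisons is filled, and the cross-cohort points of Ppp1ca lie near 0 on TPM (-0.10 and -0.04) and below 0 with median scaling (-0.31 and -0.26).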

How the data were processed

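Choroid plexus libraries of 20 rats were grouped by the labels of genotype and treatment. The authors mapped paired reads to Rnor_6.0, and the submitters' processing notes name STAR 2.7.9a, RSEM 1.3.3 and DESeq2 3.16. The authors deposited TPM, scaled to 1000000 per library, and FPKM for each gene; counts were not analysed here. The main values are log2(TPM + 0.1), tested with limma 3.58.1 in R 4.3.3 (genes averaging 0.1 TPM or more across the fitted libraries, eBayes with a trend, Benjamini-Hochberg adjustment, call at an adjusted p under 0.05), after a check on simulated data. Single values were compared by exact permutation tests, and correlations by all pairings (8 rats) or 100000 permutations (12 rats), in Python 3.11.15 with scipy 1.17.1. Median scaling used genes of at least 10 TPM. The genes, lists and tests were chosen with earlier results of these data known. Named genes are both members, the pathway genes found, the 5 named genes most like each member (1 of them is not reported here), and the markers. Symbols come from the study's supplementary tables, which name 2616 of 32883 identifiers, and RefSeq sequences were matched by symbol (2 of 2). No duplicate library was found: at most 1.92% of detected genes had identical values in any pair within a group.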

Additional observations from a re-analysis of the deposited data

Results flagged for a closer look

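Neither Slc12a2, Stk39 nor their ratio had a rat that stood apart in its group. In 116 combinations of gene and group, counting the pathway genes and markers, 7 had a rat far from the others by Dixon's criterion, where about 5.8 are expected by chance. Cab39, the SPAK scaffold, was at 67.09 TPM in obese rat 11 against 55.19 to 59.44 TPM in the other obese rats. Folr1, a folate receptor of the epithelium, was at 970.43 TPM in obese rat 10 against 1067.23 to 1111.78 TPM, and at 1245 TPM in lean control rat 15 against 1379.86 to 1400.2 TPM. Otx2, a transcription factor of the epithelium, was at 7.85 TPM in obese rat 10 against 67.29 to 85.94 TPM, and at 200.06 TPM in obese + TT rat 20 against 107.3 to 115.01 TPM. Col1a1 was at 1.47 TPM in obese + TT rat 20 against 0.53 to 0.61 TPM. Hba-a1, a haemoglobin chain, was at 3302.78 TPM in lean control rat 13 against 1213.2 to 1286.82 TPM. In obese rat 10 Slc12a2 (231.24 TPM) and Stk39 (214.21 TPM) lay within the range of the other obese rats.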

How the results depend on the processing

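No paired analysis was possible because the rats carry the numbers 1 to 20 without repeats between groups. The scaling relative to 9 epithelial markers, that relative to all 10 and 2 scalings of the centred correlations were added after seeing the data. Of 424 recomputed values, 372 kept their direction and side of the threshold (or, for counts, stayed within 1.5 times), 26 moved, 13 lost the call, 1 gained it and 12 changed sign. Relative to the 9 epithelial markers the sign turned for Slc12a2 and Stk39 in obese + TT against lean control (-0.0259 and -0.0381), lean control against lean (-0.0934 and -0.18) and obese + TT against obese (-0.0623 and -0.157); the other settings kept the sign of these 6 values. The median of all genes was at -0.1, -0.259 and -0.385 on that scale, and minus it all 6 values stayed above 0 (0.0622 to 0.323). That could hardly have come out otherwise, since the scaling divides all genes of a library by the same factor. On FPKM, Stk39 in lean control against lean was 0.0902 and lost its call. Genes called between obese and lean numbered 0 on TPM, 1 with median scaling, 1 on FPKM, 2 relative to the epithelial markers and 3 in a fit of all 20 libraries; between obese + TT and lean control 6 in the fit of all 20 libraries; and for the difference of the contrasts 1 at a minimum mean of 1 TPM, 10 without Ttr, 2 with median scaling, 2 on FPKM, 130 relative to the epithelial markers and 1 with robust eBayes. The untreated correlation was 0.552 on FPKM, 0.491 relative to the epithelial markers and 0.468 with median scaling centred on group means, and the injected one 0.709 without Ttr and 0.594 when also centred, each with an unadjusted p above 0.05 (permutation tests). By adjusted p, 0.66 without Ttr (adjusted 0.0526), 0.613 with median scaling (0.0943) and 0.611 without Ttr centred on group means (0.0782) in the untreated rats, and 0.88 with median scaling (0.0943), 0.843 with median scaling centred (0.097) and 0.782 on FPKM (0.257) in the injected rats, also lost the call (permutation tests). Leaving out 1 rat at a time gave 0 to 1 genes called between obese and lean, 0 to 25 between obese + TT and lean control and 0 to 14 for the difference (25 and 14 without lean control rat 13). It gave log2 ratios of -0.0203 to 0.0357 (obese to lean, negative without lean rats 1 or 6 or obese rats 7, 8 or 10), -0.00417 to 0.0334 (obese + TT to lean control, negative without obese + TT rat 20), 0.062 to 0.101 (lean control to lean) and 0.063 to 0.116 (obese + TT to obese, called without rat 18, exact permutation p = 0.0476), and correlations of 0.49 to 0.804 (untreated, unadjusted call lost without lean rat 3) and 0.803 to 0.92 (injected). The cause was not tested. The log2 fold changes of Slc12a2 and Stk39 ranged from -0.111 to -0.0342 and -0.108 to -0.0478 (obese to lean, nearest 0 without lean rat 3), 0.0551 to 0.13 and 0.0564 to 0.0969 (obese + TT to lean control). In all 4 comparisons they kept their sign and their side of the threshold whichever rat was left out. With the reads behind each value unknown, no counting interval could be given. For a difference between groups, no exact permutation p below 0.0286 was possible with 4 against 4 rats, and none below 0.00952 with 4 against 6.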
